A study of Sus scrofa with 8 samples.

Results

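Genes of macrophages, dendritic cells and Langerhans cells were followed in 8 skin biopsies of 2 Yorkshire pigs. They were taken as 34 symbols of this class, matched to the symbol column of the deposited gene table, and 29 of them had a row among 31907 genes. Wild-type animals, pig 13 and pig 14, each gave 2 sites biopsied 3 h after IL-15 had been injected into the dermis (200 ng, carried by 100 µl of saline) and 2 sites without an injection. This made 4 injected biopsies (sites 12d and 12c of pig 14, 12e and 12c of pig 13) and 4 control biopsies (sites 7e and 6b of pig 14, 7b and 6b of pig 13), and values below follow that order within a pig. No site received saline alone, all injected sites carry the number 12 and all controls 6 or 7, so the injection and the place on the body cannot be told apart from IL-15 itself. The whole biopsy went into RNA extraction, so in these bulk samples fewer cells of a type and less RNA per cell cannot be told apart.

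Skin holds resident macrophages in the dermis, dendritic cells in the dermis and Langerhans cells in the epidermis. Macrophages depend on the receptor CSF1R and the transcription factor PU.1 (SPI1), and take up debris and proteins through scavenger receptors. Dendritic cells carry antigen to lymph nodes along a gradient sensed by CCR7, and monocytes enter tissue from blood through CCR2. IL-15 acts mainly on lymphocytes through the shared gamma chain, and the study sought genes that respond to it in skin as readouts for a topical JAK1 and JAK3 inhibitor.

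Total counts ran from 28471089 to 36070107 per biopsy. Levels are counts-per-million (CPM) values after TMM scaling, and a gene was called when its Benjamini-Hochberg adjusted p over all 19862 tested genes was under 0.05 in edgeR's quasi-likelihood test, with treatment and pig in the model. The labels do not say more about the biopsies than the animal and the site, so a p-value measures the spread between sites of these 2 animals and not between pigs. Control biopsy 7b of pig 13 stood apart in its tissue genes, with COL1A1, the main collagen of dermis, at 8115 CPM against 37281 to 102531 CPM in the other 7.

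Of the 29 genes, 27 had enough counts to test. MARCO, a scavenger receptor of tissue macrophages, had 0 to 16 counts per biopsy, with 0, 4, 0 and 2 counts in pig 14 and 4, 9, 16 and 4 counts in pig 13. LYZ, the lysozyme gene and a standard marker of phagocytes, was listed at 0 counts in all 8 biopsies. Its annotated gene (ENSSSCG00000000492, chromosome 5, 33525744 to 33618242 in Sscrofa11.1) has 2273 exonic bases, and 100% of them also lie in exons of CPSF6 on the same strand. CPSF6 encodes a factor for messenger RNA cleavage and was counted as a separate gene. A count of 0 there would allow up to 0.0796 to 0.115 CPM for reads assigned to LYZ (3 counts, counting error only), and says nothing about lysozyme reads that no gene received.

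The remaining 5 symbols, ITGAX, CD83, SIRPA, CLEC9A and LAMP3, had no row under their names. The RefSeq gene table of the same build places ITGAX, the integrin chain CD11c, at chromosome 3, 17178725 to 17201388. That locus lies 100% inside the span of the gene counted as ITGAM (17136161 to 17273657), and 31 of the 84 exons of that gene fall in it. The values given for ITGAM, the integrin chain CD11b, therefore come from a gene model that covers both integrin loci. CD83 and SIRPA had rows without a symbol, found through their gene identifiers, and are described apart from the 27 genes. CLEC9A and LAMP3 were not analysed here.

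Per kilobase of exon, which allows levels of different genes to be set side by side, the highest of the 27 was C1QC, with a mean of 77.9 TMM-scaled RPKM over the 8 biopsies (31.2 to 143). CSF1R followed at 50.9 RPKM (32.4 to 82.2) and LAPTM5, a lysosomal membrane protein of leukocytes, at 49.0 RPKM (31.3 to 69.7), with ranges that overlapped. TYROBP, the adaptor DAP12, had 36.1 RPKM, C1QA 30.7, C1QB 27.1, SPI1 22.6 and the scavenger receptor STAB1 21.4. The 4 dendritic and Langerhans cell genes tested and the 4 chemokine receptors had at most 2.74 RPKM, and so did the macrophage genes VSIG4 (2.69), ITGAM (1.68), FCGR1A (0.713) and MSR1 (0.624). The Langerhans cell lectin CD207, also called langerin, had 2.74 RPKM (1.25 to 5.36), the growth factor receptor FLT3 0.907, XCR1 0.605, a chemokine receptor of cross-presenting dendritic cells, and CCR7 0.557. Apart from LYZ and MARCO, the defining markers of macrophages and of Langerhans cells with a row were thus counted in every biopsy. MARCO had 0 counts in 2 biopsies, and the 0 counts of LYZ do not show its absence, since all its exonic bases are shared.

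**Figure D1:**
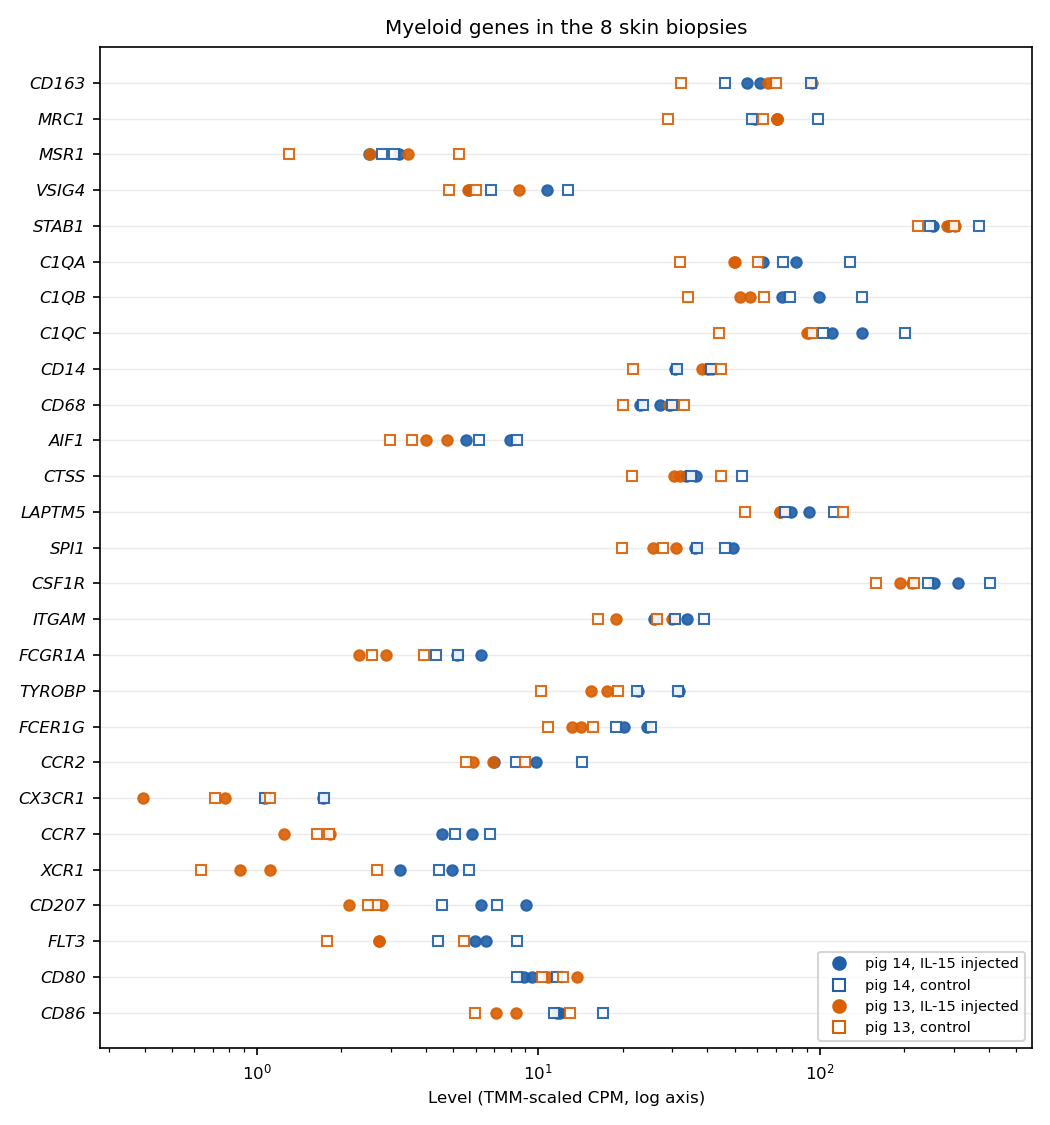
Levels of the 27 tested genes in every biopsy, in TMM-scaled CPM on a log axis, with filled circles for injected and open squares for control sites, blue for pig 14 and orange for pig 13. Positions are to be compared within a row, since CPM does not correct for gene length, and filled and open symbols mix in every row while the blue points of CCR7 lie between 4.56 and 6.76 and the orange ones between 1.25 and 1.83.

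No gene of these cells passed the test between IL-15 injected and control sites. None of the 27 was called, and adjusted p ran from 0.964 to 0.998, where 0.0352% of all tested genes were called (7 of 19862, all higher). None had an unadjusted p under 0.05, as 4.54% of all tested genes had (the smallest of the 27 was 0.189, for CCR2), and DESeq2 called none either, with a smallest adjusted p of 0.998. The log2 fold changes of injected over control sites lay between -0.51 and 0.19, with 12 above and 15 below 0 and a median of -0.020, against -0.0078 over all tested genes. In no gene did the 4 injected and the 4 control values separate, where 1.15% of all tested genes had every injected value higher and 0.916% every one lower. The 95% interval of the log2 difference lay within -1 and 1, a change of at most 2-fold, for 24 of the 27 genes. It reached further for XCR1 (-1.35 to 0.34), CX3CR1 (-1.06 to 0.46) and CD163 (-0.65 to 1.04), so a larger change was not resolved there.

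Macrophage uptake receptors were the first group. STAB1, a scavenger and clearance receptor, was the most abundant of them per length and was at 288 and 253 CPM in injected and 248 and 369 CPM in control biopsies of pig 14. In pig 13 it had 303 and 285 CPM in injected and 300 and 223 CPM in control biopsies. The injected values lay inside the range of the controls, with a log2 fold change of -0.01 ± 0.16 (SE, adjusted p = 0.994). MRC1, the mannose receptor of dermal macrophages, had 70.6 and 59.0 CPM against 57.4 and 98.8 CPM in pig 14. Its values in pig 13 were 70.5 and 70.7 CPM in injected and 62.8 and 29.0 CPM in control biopsies. Its control values spread over 3.4-fold and enclosed all 4 injected ones (0.18 ± 0.32, adjusted p = 0.974). CD163, the haemoglobin scavenger receptor, had 0.19 ± 0.36, VSIG4, a complement receptor of resident macrophages, 0.07 ± 0.28, and MSR1, a scavenger receptor for modified lipoproteins, -0.09 ± 0.36.

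The 3 chains of C1q, the complement protein that macrophages release and that tags debris, lie next to each other on chromosome 6 (C1QA 80586280 to 80589939, C1QC 80592478 to 80597459 and C1QB 80601665 to 80607471 in Sscrofa11.1). C1QA was at 82.3 and 62.8 CPM in injected and 74.1 and 128 CPM in control biopsies of pig 14, and at 50.1 and 49.8 against 60.6 and 32 CPM in pig 13. C1QC was at 141 and 111 against 103 and 201 CPM in pig 14, and at 90.2 and 92.0 against 94.0 and 43.9 CPM in pig 13. In each pig 1 control biopsy was the highest and the other was below at least 1 injected biopsy, with fold changes of -0.19 ± 0.26 for C1QA, -0.10 ± 0.26 for C1QB and 0.06 ± 0.31 for C1QC (adjusted p between 0.969 and 0.986). The chains kept nearly fixed proportions while their level moved. C1QA spread over 4.00-fold and C1QB over 4.13-fold across the 8 biopsies, but the ratio of C1QB to C1QA per length only ran from 0.83 to 0.97, a spread of 1.17-fold. The ratio of C1QC to C1QA ran from 2.15 to 2.89.

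Among the genes of phagocyte identity, CSF1R, the receptor for the macrophage growth factors CSF1 and IL-34, was at 311 and 255 CPM in injected and 244 and 402 CPM in control biopsies of pig 14. It was at 194 and 213 against 217 and 158 CPM in pig 13, so that in each pig the injected values lay between the controls (-0.04 ± 0.17, adjusted p = 0.986). SPI1 was at 49.3 and 36.2 against 36.6 and 46.3 CPM in pig 14 and at 31.0 and 25.5 against 27.8 and 19.9 CPM in pig 13 (0.14 ± 0.15, adjusted p = 0.964). The groups overlapped in both pigs. The other members of this group had values of 0.14 ± 0.20 for AIF1, a calcium-binding protein of macrophages, 0.12 ± 0.22 for the lipopolysaccharide co-receptor CD14, 0.02 ± 0.16 for the lysosomal protein CD68, -0.20 ± 0.24 for LAPTM5 and -0.21 ± 0.22 for the lysosomal protease CTSS. CTSS shared 20.1% of its exonic bases with ARNT, as FLT3 did 18.9% and FCER1G 7.11% with neighbours on their own strand and STAB1 11.5% with NT5DC2 on the other, so reads there may not be told apart.

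TYROBP and FCER1G are short membrane adaptors whose tyrosine motifs carry signals from activating receptors, and FCER1G serves the Fc receptors, FCGR1A among them. TYROBP was at 31.7 and 22.7 CPM in injected and 22.5 and 31.3 CPM in control biopsies of pig 14, and at 17.6 and 15.4 against 19.3 and 10.3 CPM in pig 13. Injected and control values overlapped in each pig (0.08 ± 0.20, adjusted p = 0.98). FCER1G had 0.03 ± 0.14, FCGR1A, the high-affinity receptor for IgG, -0.02 ± 0.21, and the ITGAM gene model -0.02 ± 0.21.

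All 4 chemokine receptors had negative fold changes, none of them called, and the sign turned only for CX3CR1 within pig 14 alone (0.0033). CCR2 was at 9.83 and 6.99 CPM in injected and 8.37 and 14.4 CPM in control biopsies of pig 14, and at 6.93 and 5.86 against 8.99 and 5.53 CPM in pig 13. The highest value of each pig was a control and the groups overlapped (-0.31 ± 0.22, adjusted p = 0.964). XCR1 had -0.51 ± 0.38, the largest size of the 27, from 21 to 149 counts per biopsy, CX3CR1, the fractalkine receptor of monocytes and some macrophages, -0.30 ± 0.34, and CCR7 -0.17 ± 0.20.

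CD207 was at 6.30 and 9.08 CPM in injected and 4.56 and 7.14 CPM in control biopsies of pig 14, and at 2.79 and 2.12 against 2.65 and 2.48 CPM in pig 13 (0.18 ± 0.22, adjusted p = 0.964). CD86, a costimulatory ligand for T cells, was at 11.9 and 11.7 against 11.4 and 17.1 CPM in pig 14 and at 7.10 and 8.39 against 13.0 and 5.95 CPM in pig 13 (-0.28 ± 0.23, adjusted p = 0.964). Groups overlapped in each pig for these genes. CD80, the second costimulatory ligand, had 0.00 ± 0.15 and FLT3 -0.22 ± 0.33.

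CD83, a surface marker of mature dendritic cells, and SIRPA, the inhibitory receptor for CD47, were read from the rows without a symbol. CD83 was at 12.5 and 7.13 CPM in injected and 7.38 and 7.33 CPM in control biopsies of pig 14, and at 6.18 and 5.07 against 4.62 and 2.78 CPM in pig 13. Its injected values exceeded both controls in pig 13, while the pig 14 injected site 12c lay just below its controls (0.50 ± 0.22, unadjusted p = 0.040, adjusted p = 0.964). SIRPA had 0.03 ± 0.09 (adjusted p = 0.979). Both were higher in pig 14 than in pig 13, CD83 by 0.89 ± 0.22 (adjusted p = 0.0263) and SIRPA by 0.36 ± 0.09 (adjusted p = 0.0291).

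**Figure D2:**
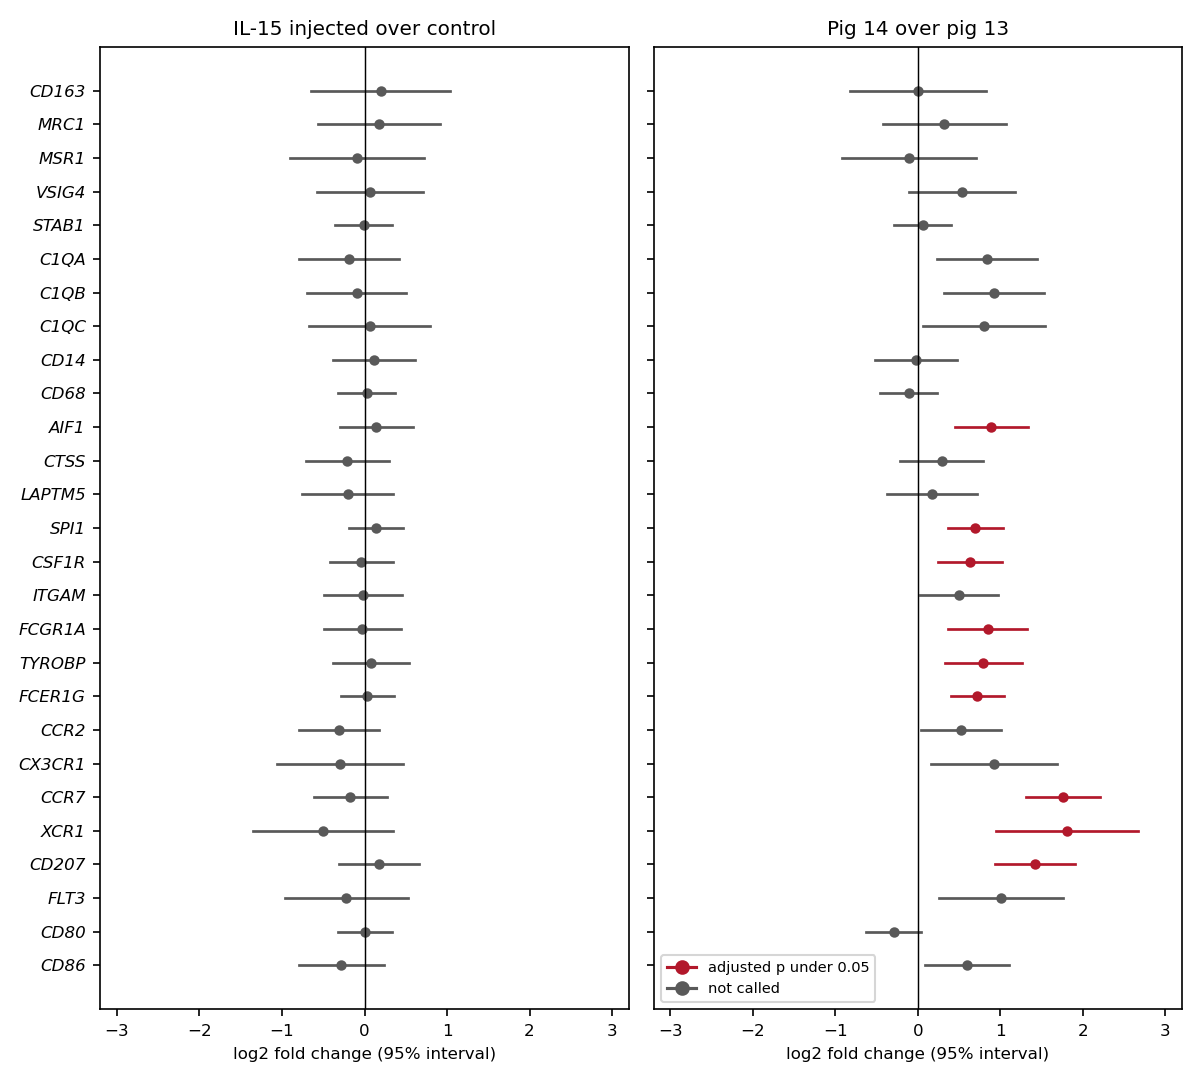
Log2 fold changes with 95% intervals of the 27 tested genes for injected over control sites (left) and for pig 14 over pig 13 (right), with genes called at an adjusted p under 0.05 in red. On the left every interval includes 0, and on the right 9 genes are called, all higher in pig 14.

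Leaving out any biopsy, or using another scaling, filter or test, gave no call of these genes for the injection. The sign of most fold changes was not stable: it turned in at least 1 of the alternatives run for 22 of the 27 genes. SPI1 stayed higher, and CCR2, CCR7, CD86 and XCR1 stayed lower, in all that were run.

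Within each animal the control sites lay further apart than the injected sites in the summed level of the 27 genes. The controls of each pig came from site numbers 6 and 7 and its injected sites shared number 12, so this spread and the place cannot be told apart. Over genes at large, the counts of the pig 13 controls also differed more than those of its injected sites (chi-square per gene 163.9 against 29.77). In pig 14 the controls differed less than the injected sites (32.29 against 44.2). CSF1R and STAB1 weigh most in the sum, with 402 and 369 CPM at pig 14 site 6b. In pig 14, control site 6b was the highest of the 4 biopsies for 21 of the 27 genes (77.8%, against 29.7% of all tested genes). In pig 13, the control from site 6b was the lowest for 21 of 27 (77.8%, against 28.0% of all tested genes), and the control from site 7b the highest for 15 (55.6%, against 30.7%). These counts were made after the values were seen. The summed level was 1913 CPM at site 6b and 1194 CPM at site 7e of pig 14, and 773 CPM at site 6b and 1262 CPM at site 7b of pig 13. Injected sites lay between, at 1472 and 1213 CPM in pig 14 and 1142 and 1159 CPM in pig 13. PTPRC, the leukocyte antigen CD45, had the same order at the control sites. It was at 71.5 and 43.5 CPM in the pig 14 controls from sites 6b and 7e and at 17.3 and 28.7 CPM in the pig 13 controls from sites 6b and 7b. Injected sites had 54.0 and 38.0 CPM of PTPRC in pig 14, the second below both controls, and 23.1 and 23.7 CPM in pig 13. The part of the number of leukocytes in this pattern was not tested.

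**Figure D3:**
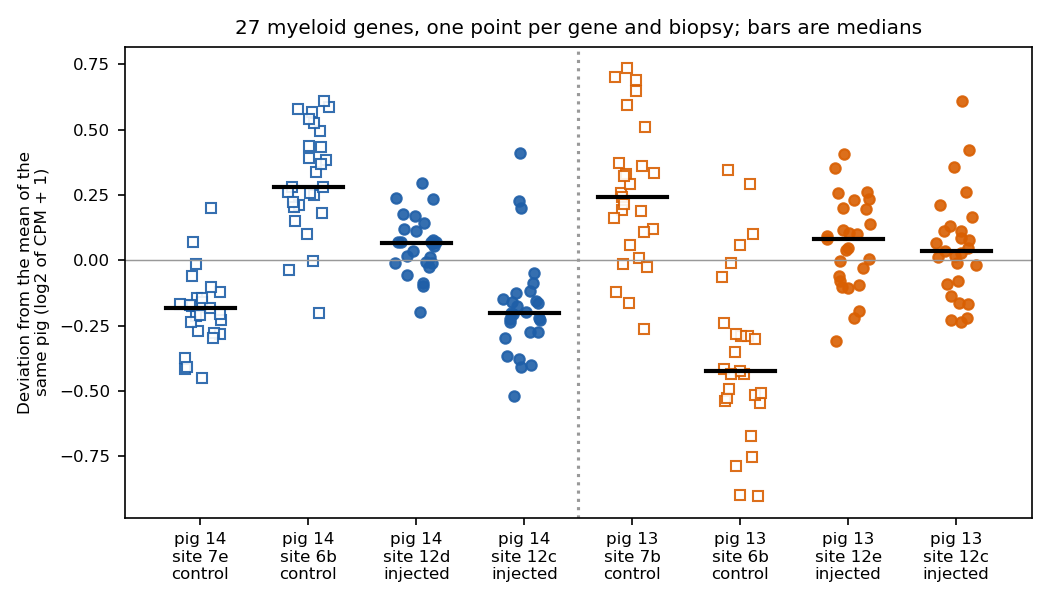
Each point is 1 of the 27 genes in 1 biopsy, as its deviation in log2 of CPM + 1 from the mean of the 4 biopsies of the same pig, with bars at the medians. The control from site 6b is high in pig 14 (median 0.28) and low in pig 13 (median -0.42), while the injected sites lie between -0.20 and 0.082.

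Within pig 13 alone the median log2 fold change of the 27 genes was 0.12 and within pig 14 alone -0.17, with no gene called in either. An interaction term compared the response of the 2 animals. It called none of the 27 genes (smallest adjusted p = 0.720, for MRC1, with 0 at an unadjusted p under 0.05), and edgeR called none of all tested genes (0%, with 8.22% at an unadjusted p under 0.05). DESeq2 called 0.512% of the genes it adjusted and none of these 27. The 95% interval of the interaction reached a log2 value of 1 or -1 for 22 of the 27 genes. A 2-fold difference in response between the pigs was thus not resolved for most of them. Without the pig 13 control from site 6b, edgeR called 313 of all genes (1.55%) and none of the 27. Without the one from site 7b, the median interaction (pig 14 minus pig 13, log2) of the 27 genes went from -0.23 to -0.65. Over all tested genes it went from -0.0031 to -0.027.

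Between the animals the picture differed. Pig 14 had higher levels than pig 13 of CCR7, XCR1, CD207, AIF1, FCGR1A, TYROBP, FCER1G, SPI1 and CSF1R, 9 of the 27 genes (33.3%), and none was called lower. Over all tested genes 10.7% were called between these pigs, 6.39% higher in pig 14 and 4.34% lower. The median log2 fold change of pig 14 over pig 13 was 0.63 over the 27 genes and -0.0024 over all tested genes, with 23 of the 27 above 0. In 12 of the 27 (none in the other direction) every biopsy of pig 14 exceeded every biopsy of pig 13, which held for 9.87% of all tested genes, and the reverse for 8.73%. With 1 animal on each side, these are differences between 2 pigs and their sampled sites.

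XCR1, CCR7 and CD207 had the largest fold changes of the 27. CCR7 is also a gene of T cells. CCR7 (ENSSSCG00000017466, chromosome 12, 21856467 to 21872535) was at 5.81 and 4.56 CPM in injected and 5.05 and 6.76 CPM in control biopsies of pig 14. In pig 13 it was at 1.25 and 1.83 against 1.64 and 1.81 CPM. The 2 pigs did not overlap, and the level was 3.38-fold higher in pig 14 (log2 1.76 ± 0.20, adjusted p = 0.00072). CD207 (ENSSSCG00000008319, chromosome 3, 71668223 to 71675417), with the values given above, was 2.67-fold higher (1.42 ± 0.22, adjusted p = 0.0036). XCR1 (ENSSSCG00000026707, chromosome 13, 29150379 to 29159637) was at 4.95, 3.24, 4.45 and 5.69 CPM in pig 14 and at 1.12, 0.876, 2.68 and 0.635 CPM in pig 13. Its pig 13 control from site 7b came closest to pig 14, and the level was 3.51-fold higher in pig 14 (1.81 ± 0.38, adjusted p = 0.0174). FLT3 had 1.0 ± 0.33 (adjusted p = 0.0878) and CD86 0.60 ± 0.23 (adjusted p = 0.130), while CD80 had -0.29 ± 0.15 (adjusted p = 0.240).

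The adaptors and Fc receptor also stood higher in pig 14. FCER1G (ENSSSCG00000006357, chromosome 4, 89242459 to 89247065) was at 24.4, 20.2, 18.9 and 25.1 CPM in pig 14 and at 14.2, 13.2, 15.7 and 10.8 CPM in pig 13 (0.72 ± 0.15, adjusted p = 0.0124). TYROBP had 0.79 ± 0.21 (adjusted p = 0.0394). FCGR1A was at 5.15, 6.25, 4.34 and 5.19 CPM against 2.89, 2.31, 2.57 and 3.93 CPM (0.84 ± 0.21, adjusted p = 0.0319), and neither it nor FCER1G overlapped between the pigs. The ratio of TYROBP to FCER1G per length ran from 2.40 to 3.27 over the 8 biopsies, while TYROBP itself spread over 3.08-fold.

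Among the genes of phagocyte identity, AIF1 was at 7.92, 5.55, 6.18 and 8.44 CPM in pig 14 and at 4.73, 4.01, 2.98 and 3.57 CPM in pig 13 (0.89 ± 0.20, adjusted p = 0.0194). SPI1 had 0.70 ± 0.15 (adjusted p = 0.0163) and CSF1R 0.63 ± 0.17 (adjusted p = 0.0447). In these 3 genes no biopsy of pig 13 reached the lowest of pig 14. CD14 and CD68, which mark the same cells, had values near 0, -0.02 ± 0.22 and -0.11 ± 0.16 (adjusted p = 0.966 and 0.704). The 3 C1q chains had 0.80 to 0.92, all without overlap between the pigs, and missed the threshold (adjusted p from 0.0648 to 0.157).

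Fold changes of the uptake receptors between the animals were nearer 0. STAB1 had 0.06 ± 0.16 (95% interval -0.29 to 0.40), CD163 0.00 ± 0.35 (-0.83 to 0.83), MRC1 0.32 ± 0.32, MSR1 -0.11 ± 0.36 and VSIG4 0.54 ± 0.28, and none of the 5 was called (adjusted p from 0.269 to 0.999). Whether these receptors differed less between the pigs than the other genes was not tested.

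**Figure D4:**
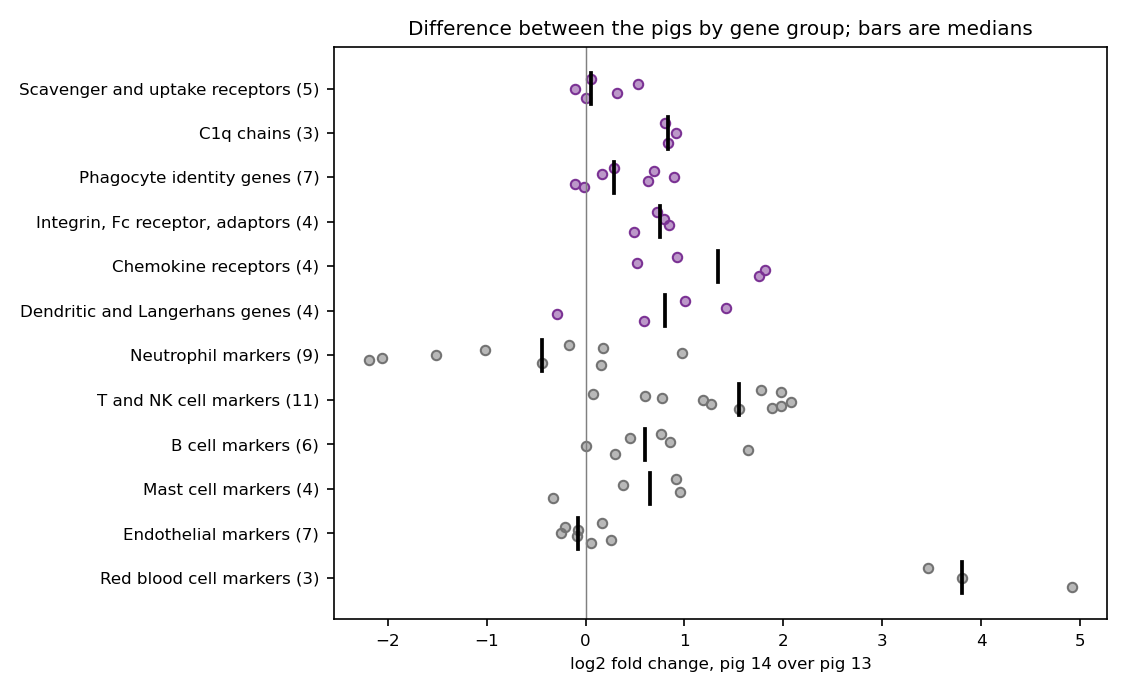
Log2 fold changes of pig 14 over pig 13, 1 point per gene, for the 27 genes by role (purple) and for markers of other cells (grey), with the number of genes in brackets and bars at the medians. The chemokine receptors have a median of 1.34 and the uptake receptors 0.059, beside 1.55 for T and NK cell markers and 3.81 for red blood cell markers.

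Some of these calls were lost when a biopsy was left out. Whether the particular biopsy or the smaller number of biopsies led to the loss was not tested. CCR7, CD207 and FCER1G stayed called whichever biopsy was left out. Without control site 7b of pig 13, CD86 and FLT3 were also called and CSF1R and FCGR1A were not. Without injected site 12d or control site 6b of pig 14, or injected site 12c of pig 13, these 3 were the only ones called in place of 9, where 5.65%, 5.90% and 7.11% of all tested genes were called. Without injected site 12e of pig 13, 5 were called, against 5.99% of all tested genes. Scaling by library totals alone, which moved the median of all genes between the pigs to -0.21, called 7 of the 27, near the 24.5% of all tested genes called under that scaling. CD80 was among them, as lower in pig 14, and CSF1R, FCGR1A and TYROBP were not. CSF1R also missed the threshold with limma-voom (adjusted p = 0.0508) and without robust estimation in edgeR (adjusted p = 0.051).

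Other cells differed between the animals as well. Of 11 tested T and NK cell markers 8 were called higher in pig 14, as 6.39% of all tested genes were. The summed level of the T and NK cell markers was 46.3 to 84.0 CPM in pig 14 and 24.5 to 38.0 CPM in pig 13. All 3 tested red blood cell markers were higher, with a summed level of 182 to 479 CPM in pig 14 and 4.83 to 19.4 CPM in pig 13. Of 9 neutrophil and 6 B cell markers none was called, and none of 7 endothelial markers. Among fibroblast markers LUM was higher in pig 14 (1.35 ± 0.32, adjusted p = 0.0353), 1 of 7 called with a list median of 1.12, and COL1A1, COL1A2, COL3A1 and THY1 did not overlap between the pigs. The mast cell marker MS4A2 was higher in pig 14 (0.95 ± 0.21, adjusted p = 0.0254; 1 of 4 called) and the basal keratinocyte marker KRT5 lower (-0.89 ± 0.25, adjusted p = 0.0484; 1 of 7 called). PTPRC was higher in pig 14 by 1.15 ± 0.22 (adjusted p = 0.0132). No marker with a row in these lists was at 0 in all biopsies, and the part of blood, lymphocyte or other tissue content in the difference of the 9 genes was not tested.

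The ligands of these receptors were examined next. Of 10 tested genes for ligands and recruiting factors none was called for the injection, with 3 higher and 2 lower at an unadjusted p under 0.05. CCL2, the main ligand of CCR2 that draws monocytes, was at 66.1 and 42.4 CPM in injected and 10.5 and 14.7 CPM in control biopsies of pig 14. In pig 13 it was at 49.6 and 15.6 against 5.11 and 1.78 CPM. Every injected value exceeded every control value, with a log2 fold change of 2.64 ± 0.54 (adjusted p = 0.746 in edgeR and 0.00154 in DESeq2, which called it). CCL8, a related monocyte chemokine, had 2.28 ± 0.66 (adjusted p = 0.964), beside the -0.31 ± 0.22 of the receptor CCR2.

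CSF1, the macrophage growth factor, was at 78.4 and 75.5 CPM in injected and 60.3 and 65.7 CPM in control biopsies of pig 14, and at 93.4 and 67.7 against 49.0 and 54.7 CPM in pig 13. All injected values were above all controls (0.46 ± 0.12, unadjusted p = 0.0031, adjusted p = 0.772). IL34, the second ligand of CSF1R and the one Langerhans cells depend on, had 0.03 ± 0.11 for the injection. IL34 was instead higher in pig 14 than in pig 13, at 46.8, 42.0, 43.2 and 50.5 CPM against 23.4, 21.8, 18.4 and 22.7 CPM (1.08 ± 0.11, adjusted p = 0.00035). CCL19, a ligand of CCR7, was also higher in pig 14 (1.17 ± 0.19, adjusted p = 0.0046), while CCL21, the other one, had 0.25 ± 0.19 (adjusted p = 0.435). For the injection CCL21 had -0.43 ± 0.19 (adjusted p = 0.964).

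**Figure D5:**
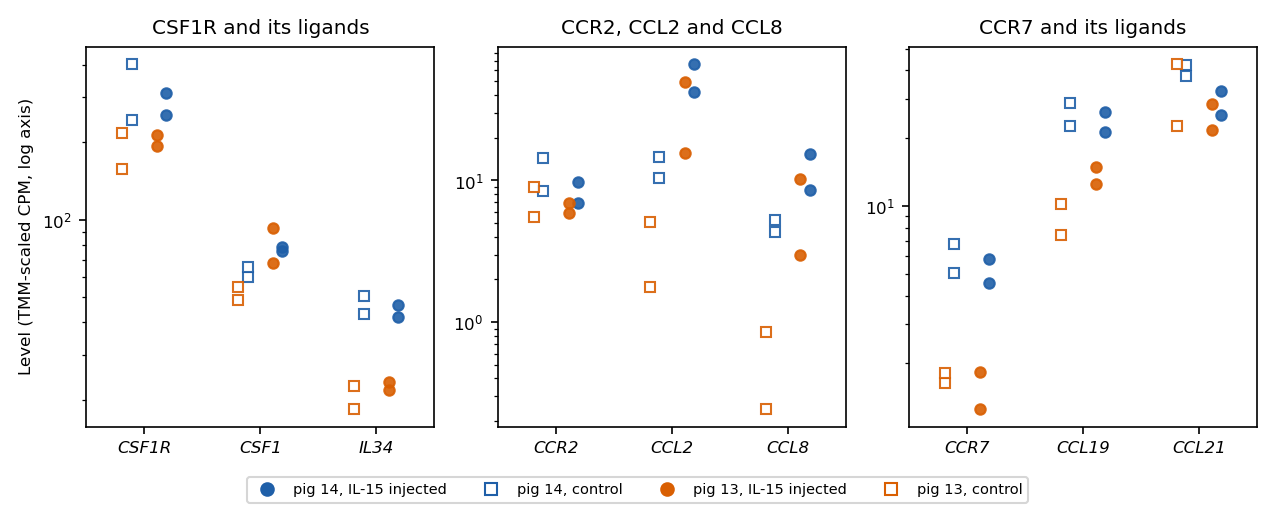
Levels of 3 receptors and their ligands in every biopsy, in TMM-scaled CPM on log axes, with filled circles for injected and open squares for control sites, blue for pig 14 and orange for pig 13. CCL2 and CSF1 have every injected value above every control value, and CSF1R, CCR2 and CCR7 do not. CSF1R, IL34, CCR7 and CCL19 separate by pig.

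Further genes of the same cells were read from lists outside the 34 symbols. Of 26 other macrophage and monocyte genes none was called for the injection, with a median of -0.022. The smallest p belonged to MS4A7, a membrane protein of macrophages (0.83 ± 0.29), TIMD4, a receptor for dying cells (1.11 ± 0.39), and F13A1, a transglutaminase of dermal macrophages (-0.34 ± 0.16), all with an adjusted p of 0.964. Of 14 other dendritic and Langerhans cell genes none was called either, with a median of -0.062. RELB, an NF-kB subunit needed by dendritic cells, had 0.60 ± 0.16 (adjusted p = 0.772), BATF3, a transcription factor of cross-presenting dendritic cells, 1.02 ± 0.27 (adjusted p = 0.807), and IRF4 -0.44 ± 0.23 (adjusted p = 0.964).

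Of 11 tested products of activated macrophages none was called by edgeR, with 4 higher at an unadjusted p under 0.05. TNF, an early inflammatory cytokine, was at 6.40 and 4.45 CPM in injected and 2.33 and 2.10 CPM in control biopsies of pig 14, and at 3.61 and 2.07 against 1.04 and 0.907 CPM in pig 13. The injected biopsies of each pig exceeded its controls (1.41 ± 0.24, adjusted p = 0.200 in edgeR and 0.00015 in DESeq2). IL6 had 3.00 ± 0.61 (adjusted p = 0.681 in edgeR and 0.0067 in DESeq2, and in edgeR 4.09 with an adjusted p of 0.0059 without the pig 13 control from site 7b) and CXCL10, an interferon-induced chemokine, 2.31 ± 0.71 (adjusted p = 0.964, and 4.13 with 0.0186 within pig 13 alone). Fibroblasts, endothelial cells and keratinocytes can also make these products, and the cell of origin was not tested.

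Between the pigs, 5 of the 26 other macrophage and monocyte genes were called higher in pig 14 and 1 lower, with a list median of 0.27. Over all tested genes 6.39% were called higher and 4.34% lower. PTPRC, IRF8, NCF1 and FCGR2B were among those higher. GPNMB, a glycoprotein also made by pigment cells, was lower (-0.84 ± 0.13, adjusted p = 0.0036). IRF8, a transcription factor of dendritic cells and monocytes, had 1.72 ± 0.26 (adjusted p = 0.0047). Of the 14 other dendritic and Langerhans cell genes 6 were called, all higher in pig 14. They were IDO1, a tryptophan-degrading enzyme (4.36 ± 0.35, adjusted p = 7.4e-05), IRF4 (2.14 ± 0.23, adjusted p = 0.00052), BATF3 (1.28 ± 0.27, adjusted p = 0.0163), CIITA, the master regulator of MHC class II (1.08 ± 0.13, adjusted p = 0.00092), CD74, its invariant chain (0.80 ± 0.15, adjusted p = 0.0098), and CADM1, an adhesion molecule (0.43 ± 0.11, adjusted p = 0.0300).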

How the data were processed

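Total RNA came from 8 whole skin biopsies, and ribosomal RNA was removed, per the labels' protocols. STAR 2.5.1a, featureCounts 1.4.6-p5 (Subread), bcl2fastq and the build Sscrofa11.1 are named in the submitters' processing notes. Strand setting and annotation release are not given in the sources used here. The authors deposited a whole-number count for each Ensembl gene, per the file headers. Each biopsy's own file, per the file headers, adds CPM, scaled to the total of that biopsy, and RPKM, which is CPM per kilobase of exon. Deposited CPM equalled the counts divided by the biopsy's total within 1e-06, and all values and tests here come from the counts. All biopsies were read from the table of the whole series, since the separate file of the pig 13 control from site 7b held only 607 complete genes.

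The table's 32388 rows hold 31907 genes, and 425 genes on several rows had equal counts on each and were kept once. The filter filterByExpr (minimum count 10; edgeR 4.0.16, run under R 4.3.3) left 19862 genes. Libraries were scaled by TMM and tested with robust quasi-likelihood F tests, with pig as a block because the labels name the animal. Correlations of the deviations from group means were taken for pairs of an injected and a control biopsy. They were 0.171 to 0.606 for pairs sharing a pig, and -0.540 to -0.230 for the other pairs. Centring on the group mean ties these ranges together, so their opposite signs are partly built in. The common biological coefficient of variation was 19.8%. Procedures were tested on simulated data. DESeq2 1.42.0 and limma 3.58.1 served as alternatives. Genes outside the members were matched by the table's symbol, then by a table of gene names and by RefSeq. The genes named outside the members were the 3 with the smallest p for the injection in each list, those called (except 1 that is not reported here), and ligands or markers set beside a member after their values were seen. The members and lists were chosen with earlier results of these data known. Promoter and protein sequences were not used here.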

Additional observations from a re-analysis of the deposited data

Results flagged for a closer look

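Among 56 groups of 4 values examined (28 genes with counts, injected and control), 1 held a value far from the others, where chance gives about 1 in 20. MRC1, the mannose receptor, was at 59.0 CPM (1605 counts) in the pig 14 injected biopsy from site 12c. The 3 other injected biopsies lay between 70.5 and 70.7 CPM, so the gap took 0.981 of the range of the group. The same biopsy was the lowest of its pig for 13 of the 27 genes (48.1%, against 27.2% of all tested genes), as was the control from site 7e of that pig (48.1%, against 22%).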

How the results depend on the processing

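None of the 27 genes was called for the injection, or for the interaction with pig, under any alternative run. Over all genes, 7 were called for the injection, 58 with DESeq2, 30 in pig 13 alone, 14 in pig 14 alone, and 3 to 19 with 1 biopsy left out. Without the replicate block, that is without pig in the model, 0 of the 27 and 6 of all genes were called. For pig 14 against pig 13, 9 of the 27 were called (10.7% of all genes), 13 with DESeq2 (15.8%), and 3 to 9 with 1 biopsy left out (5.65% to 11%). CX3CR1 could not be fitted at a minimum count of 50, where its counts fell under the filter. Without the pig 13 control from site 6b, 3 of the 27 had an unadjusted p under 0.05 for the injection. The share of all tested genes at that threshold was not counted in that run, and was 4.54% with all 8 biopsies. Away from left-out biopsies, the log2 fold change kept its sign and stayed not called in 274 of 296 values.

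The sign of the fold change turned as follows, and the cause was not tested. With upper quartile scaling CD80 had -0.0093. With limma-voom FCGR1A had 0.014, MSR1 0.045 and STAB1 0.0070. Without the replicate block FCGR1A had 0.050 and C1QC -0.027. In pig 13 alone CSF1R had 0.12, ITGAM 0.19, CD207 -0.060, C1QA 0.12, C1QB 0.16 and STAB1 0.17. In pig 14 alone CD14 had -0.022, CD68 -0.082, CD163 -0.24, AIF1 -0.11, MRC1 -0.26, FCGR1A 0.27, CD80 -0.11, VSIG4 -0.24, C1QC -0.26 and CX3CR1 0.0033. With 1 biopsy left out, ranges that crossed 0 were VSIG4 -0.13 to 0.34, FCER1G -0.068 to 0.14, CSF1R -0.15 to 0.16, ITGAM -0.21 to 0.10, C1QB -0.30 to 0.15, STAB1 -0.13 to 0.15 and CD68 -0.13 to 0.16. Further ranges were CD163 -0.082 to 0.52, FCGR1A -0.13 to 0.16, CD80 -0.095 to 0.13, MSR1 -0.37 to 0.42, C1QC -0.18 to 0.36, C1QA -0.40 to 0.057, FLT3 -0.43 to 0.19 and LAPTM5 -0.38 to 0.082. The rest were CTSS -0.41 to 0.0024, CD14 -0.087 to 0.32, MRC1 -0.097 to 0.44, TYROBP -0.085 to 0.27 and SIRPA -0.011 to 0.084.

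With 4 biopsies a group from 2 animals, the 95% interval still held a 2-fold change for XCR1, CX3CR1 and CD163.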

Other observations

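Some ligands were too low to test. CSF2, a growth factor for dendritic cells and granulocytes, had 3, 4, 6 and 10 counts in the injected biopsies and 2, 1, 6 and 4 counts in the controls. XCL1, the ligand of XCR1, had 27 and 8 counts in injected and 14 and 18 counts in control biopsies of pig 14, and 4 and 8 against 0 and 4 counts in pig 13. Neither was compared by a test.

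CXCL9, an interferon-gamma induced chemokine of macrophages, was at 33.5, 30.1, 43.7 and 56.2 CPM in pig 14 and at 2.00, 1.27, 1.09 and 1.09 CPM in pig 13 (log2 fold change 4.88 ± 0.28, edgeR adjusted p = 2.5e-05). It had the largest difference between the pigs among the lists of ligands, macrophage, dendritic cell and activation genes. For the injection it had -0.21 ± 0.25 (adjusted p = 0.964).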
